A study of Mus musculus with 4 samples.

Results

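MyoD, the basic helix-loop-helix transcription factor that switches on the muscle programme, was mapped by chromatin immunoprecipitation and sequencing (ChIP-seq) in mouse myotubes, and its peaks at the insulin-like growth factor (Igf) genes are described here. The genes were those whose symbol starts with Igf in either deposited peak list. They were 8 of the 7235 genes named in the lists, with 17 of 11907 peaks in the list for myotubes kept with pyruvate and 23 of 19338 peaks in the list for myotubes kept without it. The set was selected on the presence of a peak, with Igf2bp3 placed first on its peak width, the greatest of either list. Presence and width are therefore given as a description of these genes, with no test. Peak and gene coordinates are in mm9 as deposited.

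There were 4 samples, a MyoD ChIP and an input for each of the conditions with and without pyruvate. All came from primary myoblasts of C57BL/6 mice aged 2 weeks, differentiated for 5 days in 2% horse serum and then held for 24 hours in differentiation medium that contained pyruvate or lacked it. The antibody was SC-760, and the inputs were not analysed here. Each condition had 1 ChIP library, so no difference between the lists has a replicate check and no test between conditions was possible. Read depth is unknown. The narrowest peak was 169 bases wide in the with-pyruvate list and 144 bases in the without-pyruvate list, and 11.1% of the without-pyruvate peaks were narrower than 169 bases. Sample titles assign the lists to conditions, and abbreviations used for the files could be taken the other way round, so every direction below holds for the lists as titled. As a check of the muscle label, 8 of 8 muscle marker genes had a peak in the with-pyruvate list and 6 of 8 in the without-pyruvate list, where Ckm and Myh3 had none. Of 6 genes of fibroblasts, leukocytes and liver, 1 (Cd68) had a peak with pyruvate and 3 (Cd68, Col3a1 and Ptprc) without. Of the 7235 genes named in either list, 4704 had a peak with pyruvate and 6515 without. That base leaves out genes with no peak in either list, such as Col1a1, Pdgfra and Alb. On that base, itself selected on having a peak, the counts without pyruvate did not set muscle genes apart. Cd68, Col3a1 and Ptprc all had a peak there, whereas Ckm and Myh3 had none. Over all the markers the counts without pyruvate were 6 of 8 muscle genes against 3 of 6 others. Each of those 6 muscle genes, and Cd68, had a peak that overlapped the with-pyruvate list, whereas Col3a1 and Ptprc did not.

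Insulin-like growth factors are secreted peptides that drive growth and differentiation of muscle. Igf1 and Igf2 signal through the tyrosine kinase receptor Igf1r, Igf2r takes Igf2 up for degradation, and a family of binding proteins (Igfbp) holds the peptides in the extracellular space. The Igf2bp proteins are a separate family that binds messenger RNAs, Igf2 mRNA among them, and Igfn1 shares only the letters of the symbol, being a muscle protein with immunoglobulin-like and fibronectin domains. MyoD binds DNA at E-boxes, CANNTG, with a preference for CAGCTG.

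The sequence beneath the peaks was not analysed here. Promoters of Igfn1 and Igf1r are shown because these were the members with a peak in a flank or within 2 kb of the start. They are RefSeq sequences of build GRCm38.p6 that run from 250 bases before to 50 bases after the RefSeq start, 5′ to 3′ on the gene's strand, with each CANNTG in capitals (CAACTG and CAGCTG abut in Igfn1). Measured from the gene starts in the files, the peaks lie outside these windows, and the RefSeq starts may differ from those in the files. The Igfn1 window is chr1:136006293-136006592 on the minus strand and the Igf1r window is chr7:67952007-67952306 on the plus strand.
Igfn1: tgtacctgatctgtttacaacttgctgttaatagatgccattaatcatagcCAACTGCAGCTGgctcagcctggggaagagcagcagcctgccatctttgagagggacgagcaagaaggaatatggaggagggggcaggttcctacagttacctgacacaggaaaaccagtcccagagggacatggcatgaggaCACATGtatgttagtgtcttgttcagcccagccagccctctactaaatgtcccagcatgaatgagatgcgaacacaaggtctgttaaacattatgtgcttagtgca
Igf1r: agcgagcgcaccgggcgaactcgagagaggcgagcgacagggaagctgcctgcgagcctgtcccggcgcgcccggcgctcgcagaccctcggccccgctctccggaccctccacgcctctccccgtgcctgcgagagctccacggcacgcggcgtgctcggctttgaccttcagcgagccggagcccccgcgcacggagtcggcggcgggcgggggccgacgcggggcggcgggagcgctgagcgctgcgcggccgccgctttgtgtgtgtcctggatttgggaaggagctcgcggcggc
The Igfn1 window held 3 E-boxes, 1 of them CAGCTG, and the Igf1r window, with 76.0% G and C, held none. All 8 members had a RefSeq promoter, in 9 windows, of which 7 held CANNTG and 2 (Igfn1 and Igf1) held CAGCTG. Over 32851 RefSeq promoters of the same length the shares were 72.3% and 16.3%. CANNTG and CAGCTG read the same on either strand, so both strands were covered, and a match is not evidence of a bound site.

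Igf2bp3 carried its wide MyoD peak at nearly the same position in both lists. The gene encodes an RNA-binding protein of fetal tissues and tumours. The peak ran from 49085808 to 49087775 on chromosome 6 of mm9 (1967 bases) with pyruvate, and from 49085828 to 49087782 (1954 bases) without. The lists shared 1947 bases of it, 98.98% of the wider peak, and the peak centres lay 13.5 bases apart. Its width was 7.87 times the median of its list with pyruvate and 8.11 times the median without. The next widest peaks were 1209 bases with pyruvate and 1132 bases without, so the Igf2bp3 peak exceeded them 1.63-fold and 1.73-fold. Peaks of at least 1000 bases numbered 4 and 5 in all. Width was the only measure at hand and does not give the amount of MyoD bound. Whether the inputs also carry signal at this site was not tested. The peak was centred 78.2 kb inside the gene with pyruvate and 78.1 kb without, 60.2% of the way along its 129.7 kb body (chr6:49035220-49164953, minus strand), far from the start.

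Elsewhere in the gene the lists differed. The without-pyruvate list held 3 further Igf2bp3 peaks, all downstream of the wide one and all without a counterpart with pyruvate. They were 159, 167 and 502 bases wide, the first 2 under the narrowest width of the other list, and were centred 94.98, 102.2 and 103.7 kb from the start. The 502-base peak (chr6:49061029-49061531) was wider than 99.2% of the peaks of its list that had no overlap with the other list. The nearest peak with pyruvate to it lay 24.3 kb away, which was the wide peak itself. Outside the gene, within 100 kb of its body, both lists had a peak in Gpnmb (328 bases with pyruvate and 345 without) and one in Tra2a (172 and 164 bases), and the without-pyruvate list had another of 161 bases in no gene region.

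**Figure D1:**
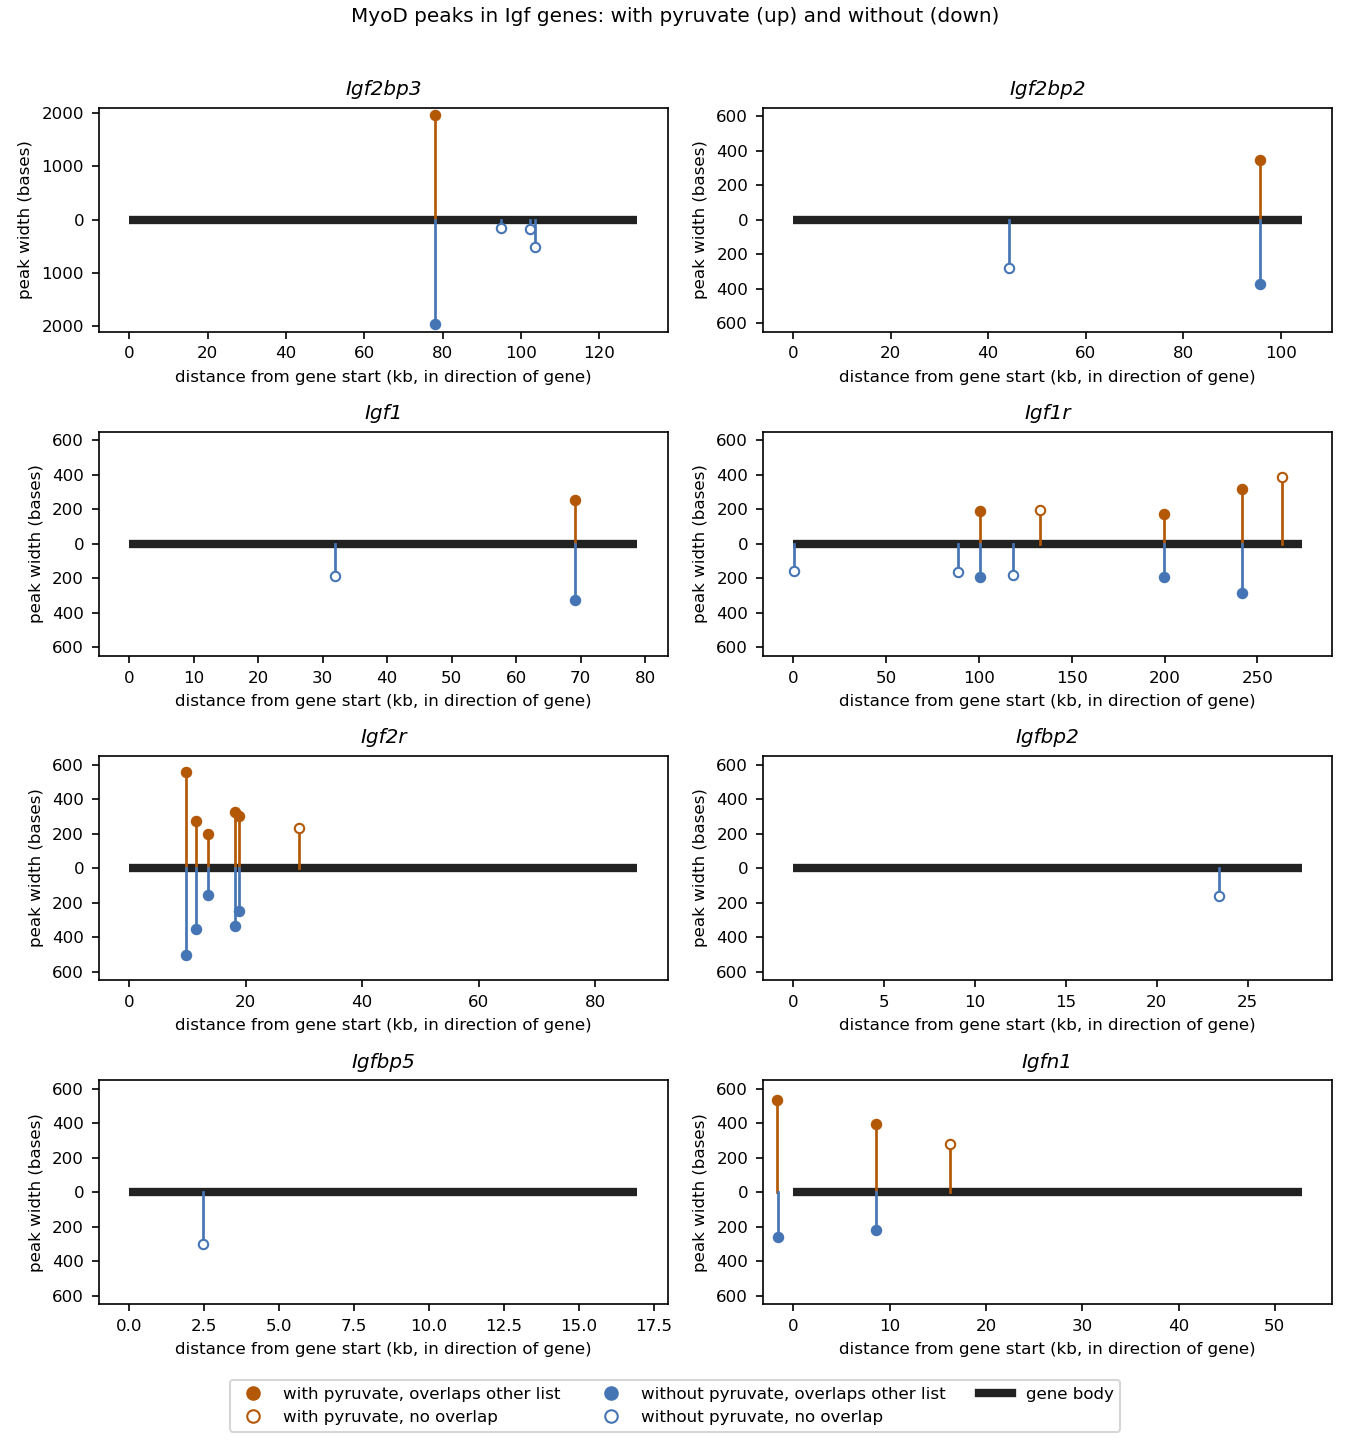
Each panel is 1 gene, drawn from its start (0 kb) in its own direction, with the gene body as a black bar. Stems give peak width in bases, upward for the with-pyruvate list and downward for the without-pyruvate list, and filled points mark peaks that overlap the other list. The wide Igf2bp3 peak stands at 78.2 kb with pyruvate and 78.1 kb without, and Igfbp2 and Igfbp5 have stems in the without-pyruvate list alone.

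Igf2bp2, the relative of Igf2bp3 that is expressed in muscle precursor cells, had a shared peak towards the end of the gene. It was 345 bases wide with pyruvate (chr16:22067497-22067842) and 375 bases wide without (chr16:22067485-22067860), centred 95.7 kb from the start in either list, 91.8% of the way along the body. The overlap covered 92.0% of the wider peak. A second peak of 281 bases, 44.3 kb from the start, was in the without-pyruvate list, and the nearest peak with pyruvate lay 51.1 kb from it. No other peak of either list lay within 100 kb of the gene.

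The ligand gene Igf1 showed the same arrangement. A peak centred 69.1 kb from the start, 87.8% of the way along the 78.8 kb body, was 257 bases wide with pyruvate (chr10:87390020-87390277) and 324 bases wide without, and the narrower lay wholly inside the wider. The without-pyruvate list added a peak of 186 bases at 31.8 kb. The surroundings were empty, with no further peak of either list within 100 kb of the gene.

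At the receptor gene Igf1r, with a body of 273.8 kb (chr7:75097713-75371484), 3 sites were in both lists and 5 were in a single list. The shared peaks were 193, 172 and 317 bases wide with pyruvate, against 194, 191 and 285 bases without, at 100.6, 199.8 and 241.7 kb from the start. The first of these had nearly the same edges in both lists, with centres 0.5 bases apart. With pyruvate there were also peaks of 197 bases at 132.7 kb and 386 bases at 263.0 kb (chr7:75360534-75360920). The 386-base peak lay 21.0 kb from the nearest peak without pyruvate and was wider than 95.1% of the peaks of the with-pyruvate list that had no overlap with the other list.

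The without-pyruvate list had 3 Igf1r peaks of its own, of 160, 163 and 182 bases, wider than 5.79%, 8.35% and 18.5% of that list. The narrowest was the nearest to a start among all members, from 132 to 292 bases inside the gene (chr7:75097845-75098005). The peaks of 160 and 163 bases were narrower than any peak of the with-pyruvate list. Exactly 160 bases is also a width at which peaks of the without-pyruvate list pile up (461 peaks). The closest peak with pyruvate lay 100.2 kb from the 160-base peak, 11.6 kb from the 163-base peak and 14.1 kb from the 182-base peak.

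Igf2r, the receptor that clears Igf2, carried several sites close together. It had 6 peaks with pyruvate and 5 without in a body of 87.3 kb, or 6.88 and 5.73 peaks per 100 kb of gene body, against medians of 2.86 and 3.17 over the genes with a peak in the body. All 5 peaks without pyruvate overlapped a peak with pyruvate, within a stretch of 9.54 kb with pyruvate and 9.48 kb without that began 9488 and 9526 bases inside the gene. From the start inward their widths were 556, 275, 195, 324 and 301 bases with pyruvate and 506, 352, 158, 337 and 251 bases without. The first, chr17:12952486-12953042 with pyruvate, was wider than 97.8% of its list, and its partner without pyruvate than 96.6%.

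The remaining Igf2r peak, 230 bases at 29.1 kb (chr17:12933301-12933531), was in the with-pyruvate list alone, 9.99 kb from the nearest peak without pyruvate. Every Igf2r peak was also assigned to an unnamed gene on the opposite strand (ENSMUSG00000078247, chr17:12934177-13052988), whose body overlaps the first 28.4 kb of Igf2r. The 230-base peak lay outside that body, from 646 to 876 bases upstream of its start. A further site within the unnamed gene, beyond Igf2r, was in both lists, 466 bases wide with pyruvate and 412 without. Peaks in this overlap cannot be given to either gene by position.

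Of the genes with a peak in the body, 6.4% with pyruvate and 9.12% without had at least 5. Igf2r (6 and 5 peaks) and Igf1r (5 and 6 peaks) did so in both lists, although in the longer Igf1r the density with pyruvate was 1.83 peaks per 100 kb. Igf1, Igf2bp2 and Igf2bp3 had 1 peak each with pyruvate, against 2, 2 and 4 without.

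The binding protein genes Igfbp2 and Igfbp5 lie tail to tail on chromosome 1 and had peaks in the without-pyruvate list alone. Igfbp5 encodes the binding protein best known from myoblast differentiation. Its peak was 298 bases wide (chr1:72918840-72919138), between 2320 and 2618 bases inside the gene. The Igfbp2 peak was 160 bases wide (chr1:72894407-72894567), 23.4 kb from the start, and was also narrower than any peak with pyruvate. It too had the width shared by 461 peaks of the without-pyruvate list. The nearest peaks with pyruvate were 73.3 kb from the Igfbp5 peak and 50.4 kb from the Igfbp2 peak.

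Most peaks around this pair, outside any gene region, were in both lists. The genes are 5.46 kb apart. Within 100 kb on either side the with-pyruvate list held 10 peaks and the without-pyruvate list 12, of which 8 in each overlapped. Over the whole lists 71.8% of peaks with pyruvate and 44.2% without overlapped the other list, and the difference from these shares was not tested. Of the 8 shared sites, 5 lay beyond the start of Igfbp5, from 76.6 to 94.7 kb away. These 5 overlapping pairs measured 308, 511, 469, 571 and 598 bases with pyruvate, against 264, 486, 303, 777 and 633 bases without. In each list 4 of the peaks in the window were at least 450 bases wide, a width reached by 6.37% of all peaks with pyruvate and 5.76% without.

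Among the shared sites, one upstream of Igfbp2 had the width ratio farthest from equality. Centred 27.2 kb before the start with pyruvate and 27.0 kb without, it was 322 bases wide with pyruvate (chr1:72843712-72844034) and 774 bases without (chr1:72843670-72844444), a ratio of 0.416. Of 8444 pairs in which each peak overlapped a single peak of the other list, 2.06% had a ratio of 0.5 or less. No gene is assigned to it in the files.

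**Figure D2:**
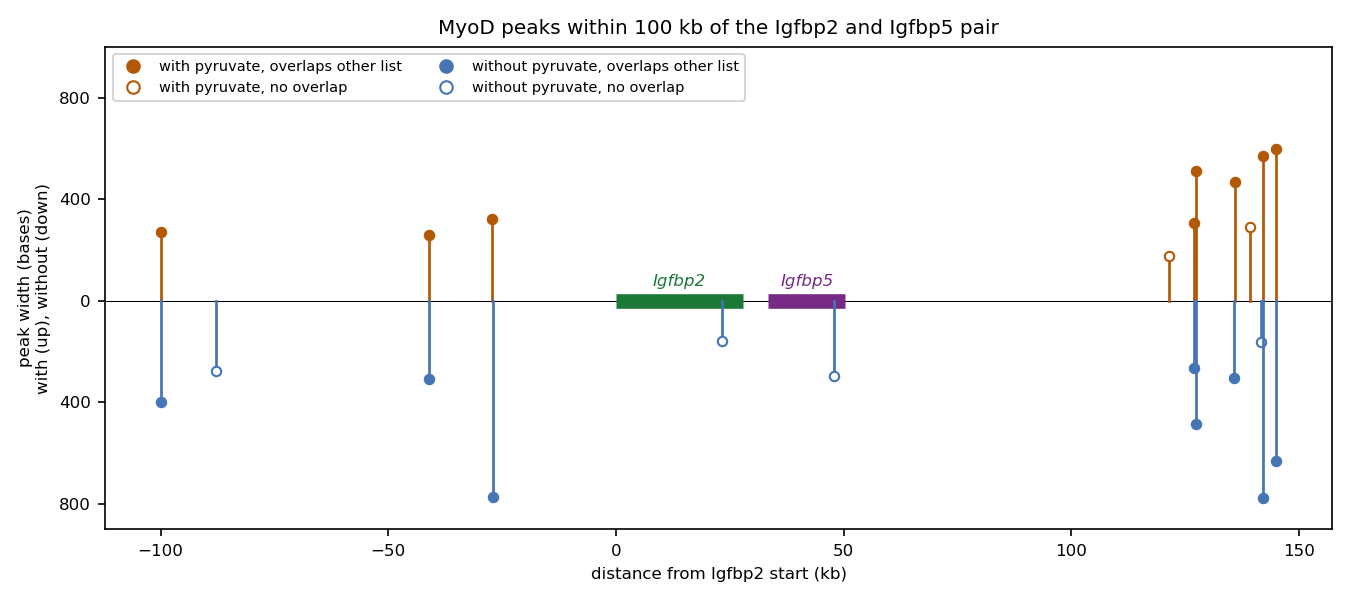
The horizontal axis is distance from the Igfbp2 start in kb and stems give peak width in bases, upward with pyruvate and downward without; filled points overlap the other list. The peaks inside the gene bodies point down alone, whereas 8 sites on either side are in both lists.

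Igfn1, the muscle protein gene outside the growth factor axis, had the highest width ratios of the group, with both shared peaks wider with pyruvate. It had 3 peaks with pyruvate and 2 without. The upstream peak was 534 bases wide with pyruvate (chr1:137904288-137904822) and 262 bases without (chr1:137904390-137904652). It was in the 2-kb flank, its nearer edge 1369 and 1471 bases before the start, and was also assigned to the flank of the neighbouring gene Tmem9. The peak at 8.6 kb inside the gene was 395 bases with pyruvate and 222 without.

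These pairs had width ratios of 2.04 and 1.78. Of all pairs 1.56% reached a ratio of 2, and the Igfn1 pairs ranked above 98.6% and 97.4% of them. The third Igfn1 peak, of 282 bases at 16.2 kb, was in the with-pyruvate list and lay 7.38 kb from the nearest peak without. Beyond the start, Cacna1s, the voltage-sensing calcium channel gene of muscle, had a peak of 575 bases with pyruvate and 325 bases without in its body, and another of 411 bases across its start with pyruvate alone. On the other side of Igfn1, 3 shared sites in no gene region were narrower with pyruvate, at 252, 197 and 175 bases, against 339, 227 and 231 bases without. Peaks of 291 and 223 bases there were in the without-pyruvate list alone. In Tmem9 a shared peak was 185 bases wide with pyruvate and 164 without.

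**Figure D3:**
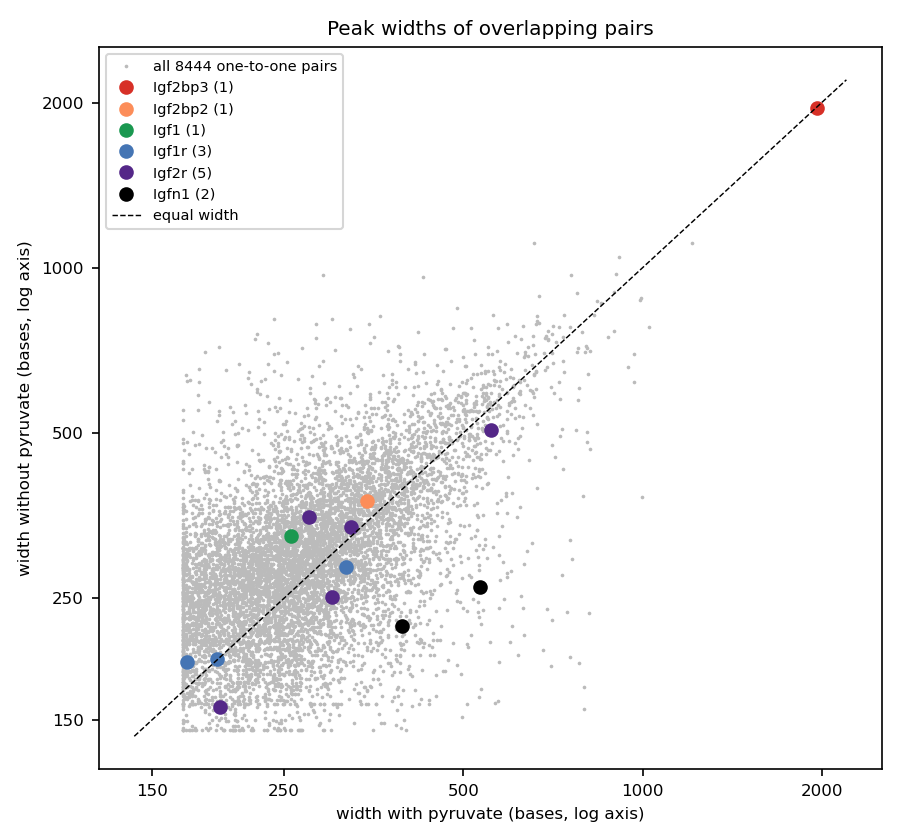
Width with pyruvate (horizontal) against width without (vertical), in bases on log axes, for all 8444 pairs in which each peak overlaps a single other (grey) and for the 13 Igf pairs (coloured, number of pairs in brackets). Igf2bp3 stands at the far end of the line of equal width, and both Igfn1 pairs lie below it, wider with pyruvate.

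Over the whole group, 6 of 8 genes had a peak in both lists, 0 in the with-pyruvate list alone and 2 (Igfbp2 and Igfbp5) in the without-pyruvate list alone. Of all genes 55.1% had a peak in both, 9.95% with pyruvate alone and 35% without alone. Each of the 6 had at least 1 overlapping pair of peaks, as did 94.7% of all genes with a peak in both lists. By peaks, 13 of 17 with pyruvate overlapped the other list (76.5%, 95% exact binomial interval 50.1 to 93.2), against 71.8% of the whole list. Without pyruvate 13 of 23 did (56.5%, 34.5 to 76.8), against 44.2%. The intervals include the background shares and cover counting error only, and peaks of 1 gene are not independent.

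Across the 13 pairs the ratio of width with pyruvate to width without ranged from 0.78 to 2.04, with a median of 1.01, against a median of 0.926 over all pairs. The wider peak was the one with pyruvate in 7 of 13 pairs, against 38% of all pairs. Those 7 included both Igfn1 pairs, and the rest lay in Igf2r, Igf1r and Igf2bp3. Pairs of the same gene are not independent, and the count was not tested. Centres lay a median of 9.5 bases apart, and 17.5 bases apart over all pairs. Shared Igf peaks had a median width of 317 bases with pyruvate and 285 bases without, while the 4 and 10 without a partner had medians of 256 and 174.5 bases. Of those 10, 5 were narrower than the 169 bases at which the with-pyruvate list begins. The same order held over the whole lists, with 265 against 218 bases with pyruvate and 289 against 212 without.

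**Figure D4:**
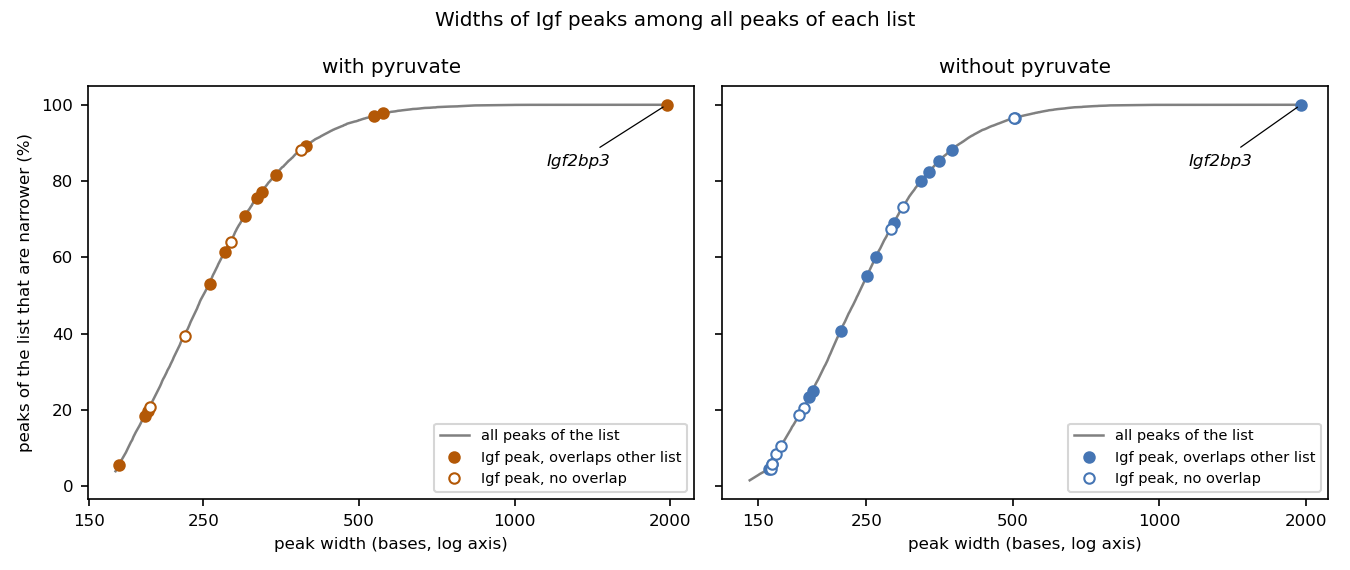
For each list, the share of its peaks that are narrower (percent, vertical) against peak width (bases, log axis), with the whole list as a grey line and Igf peaks as points, filled where they overlap the other list. Igf peaks run from 172 to 1967 bases with pyruvate and from 158 to 1954 bases without, and open points gather at the narrow end in the without-pyruvate panel.

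The position of the sites was alike in 6 of the 8 genes, in that they lay inside the gene and over 2 kb from its start. A peak within 2 kb of the start or in a flank was present in both lists for Igfn1 and without pyruvate alone for Igf1r. Such a peak was listed in both for 20.6% of all genes, 6.15% with pyruvate alone and 18.3% without alone. Exons and introns could not be told apart, since the files list whole gene bodies. RefSeq holds 19 protein-coding genes whose symbol starts with Igf. The other 11, among them the ligand gene Igf2, Igf2bp1, Igfals and the binding protein genes Igfbp1, Igfbp3, Igfbp4, Igfbp6 and Igfbp7, have no peak row in the lists used here.

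The wider insulin and Igf pathway was described with a list of 82 genes outside the Igf symbols, of which 53 had a peak row. Of these, 32 had a peak in both lists (60.4%), 6 with pyruvate alone (11.3%) and 15 without alone (28.3%), close to the background of 55.1%, 9.95% and 35%. By branch, a peak in both lists was found for 3 of 8 receptor and adaptor genes, 7 of 12 for the kinases and their control, 4 of 7 for the mTOR branch and 5 of 7 for FoxO and Gsk3. It was found for 3 of 4 in the Ras branch, 4 of 6 for growth hormone input, 4 of 5 for proteases that cut binding proteins, 1 of 2 insulin genes and 1 of 2 imprinted and RNA partners.

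A peak within 2 kb of the start or in a flank was present for 17 pathway genes. It was in both lists for 5 (9.43%), with pyruvate alone for 5 (9.43%) and without alone for 7 (13.2%), against 20.6%, 6.15% and 18.3% of all genes. Eif4ebp1, the repressor of cap-dependent translation that mTOR inactivates, had the widest of them, 539 bases with pyruvate (chr8:28371549-28372088), starting 750 bases inside the gene. It had 2 more peaks with pyruvate, of 290 and 235 bases, and none without. Among the others with pyruvate alone were Socs2, an inhibitor of growth hormone signalling (243 bases), the adaptor gene Shc1 (175 bases) and Pdpk1, the kinase that activates Akt (169 bases).

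In the without-pyruvate list alone, the widest such peak was at the listed start of Ins2, an insulin gene (271 bases, chr7:149885260-149885531). The files give Ins2 a body of 20.9 kb, and Igf2 is its neighbour in RefSeq. The other 6 were Grb2, an adaptor of receptor tyrosine kinases (215 bases), the cytokine signalling inhibitor gene Socs1 (206 bases), Adam12, a protease of binding proteins (200 bases), the chromatin protein gene Hmga1 (191 bases), Pik3r1, the regulatory subunit of PI3-kinase (190 bases), and the kinase gene Akt1 (189 bases).

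In both lists, Inppl1, a lipid phosphatase that opposes PI3-kinase signalling, had a peak of 285 bases with pyruvate and 420 bases without at its start. Peak widths with and without pyruvate were 200 and 273 bases for the kinase gene Gsk3b, 219 and 212 bases for Insl6, an insulin-like peptide gene, and 174 and 219 bases for the S6 kinase gene Rps6kb2. For Gsk3b, Socs1, Akt1 and Shc1 the files list only a flank and not on which side of the gene it lies. Htra1, a secreted protease that cuts binding proteins, also counted in both, but its peaks (316 bases with pyruvate and 301 without) did not overlap and were 152 bases apart. Among genes chosen after their values were seen, the insulin receptor gene Insr had a shared peak deep in its body of 501 bases with pyruvate and 493 without. Fbxo32, the FoxO target atrogin, had one of 484 and 465 bases and a second that was narrower with pyruvate, 222 against 301 bases. Both genes also had a peak with pyruvate alone, of 287 bases in Insr and 264 bases in Fbxo32. Rptor, which encodes a core subunit of mTOR complex 1, had 12 peaks with pyruvate and 11 without, 7 of them shared in each list.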

How the data were processed

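MyoD ChIP-seq peaks were analysed from 2 deposited lists, 1 per condition. Per the submitters' processing notes, bcl2fastq 2.19, Bowtie2 2.1.0, MACS2 2.1.1 and build mm9 were used. For calling thresholds, the use of the inputs and the gene annotation, the entry is "not given in the sources used here". Peak starts and ends were deposited by the authors beside every gene body or 2000-base flank touched, per the file headers and the values. The column headed fold enrichment holds 0 in every numeric row, so width (end minus start) was the measure left. Width depends on depth, which is unknown, and on fragment size.

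Groups came from sample titles. Rows were reduced to 11907 and 19338 distinct peaks, with and without pyruvate. In each list a few peaks (3 and 14) overlap the next peak of the same list. Without pyruvate, widths piled up at 144 bases (290 peaks) and again at 160 bases (461 peaks, beside 33 at 159 and 107 at 161 bases). With pyruvate they piled up at the narrowest width, 169 bases (462 peaks, beside 70 at 170 bases). Whether a list came from 1 calling run was not tested. An overlap of 1 base or more made a peak shared. Shares carry 95% Clopper-Pearson intervals. Genes are symbols, or IDs where no symbol is listed, 7235 in all. A gene's start was taken from its listed body and strand. Names and promoters came from RefSeq GRCm38.p6, whose coordinates were not mixed with mm9. The overlap code was tested on simulated data. Alternatives were stricter overlap, a minimum width, an equal number of peaks, start or flank peaks, and Igfn1 left out.

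The naming rule was every Igf gene, every pathway gene with a peak within 2 kb of its start or in a flank (at most 20), and the neighbours of Igf2bp3. A gene that this rule takes is not reported here. Members, lists and the rule were chosen with earlier results of these data known. Genes around other members, and Insr, Fbxo32 and Rptor, were chosen after their values were seen. Computation was in Python 3.11.15 with pandas 2.3.3, numpy 2.4.6 and scipy 1.17.1, and plots were drawn in matplotlib 3.10.9.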

Additional observations from a re-analysis of the deposited data

How the results depend on the processing

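Of 20 alternative values for the counts of Igf genes and peaks, 16 stayed within 1.5 times the reported count and 4 moved. The 16 included the genes with pyruvate alone, 0 at each setting, for which a 1.5-fold limit has no meaning. They also included the fall of shared peaks from 13 to 9, so the tally is a loose measure. The genes without pyruvate alone fell to 1 with peaks of at least 250 bases. They also fell to 1 with the longer list cut to its widest peaks at equal list length. The 160-base Igfbp2 peak is too narrow for either setting and drops out. The 6 genes in both lists were kept in number. With peaks within 2 kb of the start or in a flank, 1 gene was in both lists and 1 without pyruvate alone, since most sites lie deeper in the genes. Shared peaks in each list were 12 with a reciprocal overlap of 50% and 13 with centres within 100 bases. These were out of 17 peaks with pyruvate and 23 without. At 250 bases or more they were 9 of 12 in both lists. At equal list length they were 10 of 17 with pyruvate and 10 of 13 without. The higher overlap share with pyruvate therefore did not hold at the minimum-width and equal-length settings. Without Igfn1, 5 genes were in both lists. No paired analysis was possible because each condition had 1 library. Unknown depth limits every absence, since a site that one list lacks could have fallen under its caller's threshold.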
